A study of Mus musculus with 17 samples.

Results

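The cells described here are the dorsal skin innate lymphoid cells (ILCs) in which at least 1 count of Il1rl1 was recorded. Il1rl1 (ENSMUSG00000026069, GRCm38 chr1:40429570-40465415, plus strand, protein-coding) encodes ST2, the receptor for IL-33. The rule found 145 such cells among 1018 dorsal cells, 49 of 564 on day 0 and 96 of 454 on day 10 after depilation, and they were compared with cells of the same library that had 0 Il1rl1 counts. In a further skin library, which the rule did not use, the same split gave 476 of 4444 cells. All 3 single-cell libraries are labelled as ILCs from the skin of C57BL/6 mice (the protocol names ear and dorsal skin), with 1 library each and no replicate. Their labels name no genotype beyond the strain, and both dorsal tables list a tdtomato reporter transcript. The 14 bulk libraries hold live, lineage-negative, γδTCR-negative, CD90-positive skin cells in 6 groups. Cells that carried a fate-map (fm) reporter and cells that did not were taken from intact mice (fm_pos and fm_neg, n = 2 each) and from fate-map mice labelled Gata3flox, which the protocol writes as lacking Gata3 (fm_pos_Gata3flox and fm_neg_Gata3flox, n = 3 each). The cells in which their Gata3 was deleted are not described here. The other groups were C57BL/6 wild type (WT_tamoxifen, n = 2) and Gata3fl/flCreERT2 (Gata3KO_tamoxifen, n = 2), both given 3 injections of 5 mg tamoxifen on alternate days. A fate-map reporter stays on after the gene that switched it on falls silent, and CreERT2 acts only in the presence of tamoxifen. The sample titles of the fate-map libraries name RORgt, as RORgt-fm.

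IL-33 is an alarmin, a cytokine held in the nucleus of barrier cells and set free when they are damaged. It binds ST2, which pairs with the accessory chain IL1RAP and signals through MYD88, IRAK kinases and TRAF6 to NF-κB and MAP kinases. Group 2 innate lymphoid cells (ILC2s) are known for ST2, for the transcription factors GATA3 and RORα, and for IL-5, IL-13, amphiregulin and GM-CSF as secreted products. In mouse skin many ILC2s carry little ST2, and mast cells and some regulatory T cells carry it too.

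RefSeq (GRCm38.p6) places starts of Il1rl1 at 2 positions, and the windows from 250 bases before to 50 after each start are shown because this gene chose the cells. The windows of Il5 and Cxcl2 are shown as examples that hold a match, from the 5 genes higher in the chosen cells below. The others are not shown: both Tent5a windows held 0 matches to either motif, the RefSeq start of Csf2 lies outside the gene as annotated here (3 GATA and 0 NF-κB matches), and Klrg1 is named only. Capitals mark GATA on either strand (written GATA or TATC), the core recognised by GATA factors, and a common form of the NF-κB motif on either strand (GGG, then any pair of bases, then TTTCC, or its reverse GGAAA, any pair, CCC). The motifs share no overlap in these windows. All 4 windows lie on the plus strand, at chr1:40429320-40429619 and chr1:40439379-40439678 for Il1rl1, chr11:53720544-53720843 for Il5 and chr5:90903649-90903948 for Cxcl2.
Il1rl1, distal start: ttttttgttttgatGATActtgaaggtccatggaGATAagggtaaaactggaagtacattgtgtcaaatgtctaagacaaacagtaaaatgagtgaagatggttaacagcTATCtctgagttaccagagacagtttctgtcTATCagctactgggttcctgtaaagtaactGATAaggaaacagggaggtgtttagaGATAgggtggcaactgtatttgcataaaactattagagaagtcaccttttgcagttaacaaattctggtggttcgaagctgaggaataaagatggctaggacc
Il1rl1, proximal start: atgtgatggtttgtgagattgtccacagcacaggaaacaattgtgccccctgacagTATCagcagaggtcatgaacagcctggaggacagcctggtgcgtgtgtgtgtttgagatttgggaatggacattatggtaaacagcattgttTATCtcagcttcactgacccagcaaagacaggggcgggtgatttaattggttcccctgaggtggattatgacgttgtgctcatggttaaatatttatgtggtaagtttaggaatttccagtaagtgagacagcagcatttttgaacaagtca
Il5: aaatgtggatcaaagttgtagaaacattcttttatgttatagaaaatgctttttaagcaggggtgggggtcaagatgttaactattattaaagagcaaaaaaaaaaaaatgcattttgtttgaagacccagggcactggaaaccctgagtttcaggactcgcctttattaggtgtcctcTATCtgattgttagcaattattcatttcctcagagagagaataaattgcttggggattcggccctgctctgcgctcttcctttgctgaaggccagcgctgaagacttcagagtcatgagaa
Cxcl2: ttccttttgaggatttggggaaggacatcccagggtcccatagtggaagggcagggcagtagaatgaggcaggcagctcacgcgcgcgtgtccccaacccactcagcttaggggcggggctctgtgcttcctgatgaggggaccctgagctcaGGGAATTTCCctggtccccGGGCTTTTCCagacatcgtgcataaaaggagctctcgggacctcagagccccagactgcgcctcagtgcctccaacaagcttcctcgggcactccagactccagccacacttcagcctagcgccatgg
The distal Il1rl1 window held 6 GATA matches, a number reached in 0.645% of the 32851 RefSeq windows. The proximal one held 2, reached in 28.7% of windows, and the Il5 window held 1, reached in 57.9%. The Cxcl2 window held 2 matches to the NF-κB motif, reached in 0.0304% of windows, against 1.63% with 1 or more, and the other 3 windows held 0. These are letter matches only, and no binding data were used here.

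The Il1rl1-positive share was larger in the day 10 library than in the day 0 library. It was 8.69% on day 0 (exact Clopper-Pearson 95% interval 6.50 to 11.3), 21.1% on day 10 (17.5 to 25.2) and 10.7% in the skin library (9.82 to 11.7). With 1 library per day there is no test between days, and the intervals cover counting error only. After each cell was thinned to 1000 counts, which left out 34, 31 and 336 shallower cells, the shares were 6.42%, 17.02% and 7.86%. On day 10 the share was higher in each deeper class of cells, and on day 0 it was highest in the third class. Over 4 depth classes of nearly equal size, from the shallowest to the deepest, the share was 3.55%, 6.38%, 14.9% and 9.93% on day 0 and 13.2%, 17.7%, 23.0% and 30.7% on day 10. The day 10 share was above the day 0 share in each class. The plot of shares by library, depth and cluster shows these values.

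**Figure D1:**
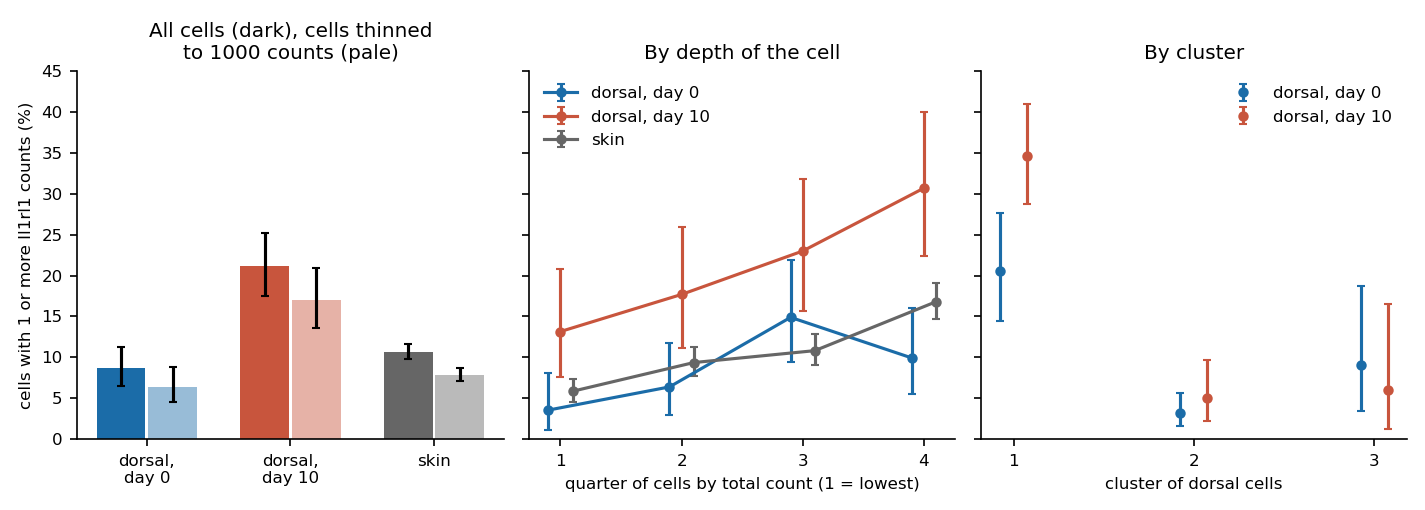
Percent of cells with 1 or more Il1rl1 counts: by library (left, all cells dark and cells thinned to 1000 counts pale), by depth class, 4 classes of total counts per cell (middle) and by cluster of the dorsal cells (right). Error bars are exact 95% Clopper-Pearson intervals, and the day 10 library reaches 21.1% against 8.69% on day 0, with cluster 1 holding the highest share on both days.

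The choosing gene itself is given as a description. The 49 day 0 cells held 188 Il1rl1 counts, a mean of 3.84 per cell and at most 22. The 96 day 10 cells held 409, a mean of 4.26 and at most 26. Summed over the cells, the level was 1602 CPM (counts scaled to a common library total) on day 0 and 1904 on day 10. At the edge of the rule, 18 day 0 and 29 day 10 cells had exactly 1 Il1rl1 count, while the cells just outside had 0. Requiring 2 or more counts would keep 31 and 67 cells, or 5.50% and 14.8% of the libraries.

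The positive cells were concentrated in 1 of the 3 clusters that the dorsal cells formed when Il1rl1 was kept out of the clustering. Cluster 1 was led by Penk, Il1r2 and Slco2b1, with Il5 at rank 8. It held 117 of the 145 positive cells, 29.2% of its 401 cells (20.5% on day 0 and 34.7% on day 10). Cluster 2 was led by Mast4, 5830411N06Rik and Fzd4, with tdtomato at rank 6 and Cd163l1 at rank 9. It held 19 among 501 cells, a share of 3.79%. Cluster 3, led by heat shock and immediate early genes such as Hspa1a, Egr1 and Fosb, held 9 among 116 cells, a share of 7.76%. The median total counts per cell were 2111, 1894 and 1457 in the 3 clusters. No cluster had enough markers of 1 cell type among its leading genes to be named. Cluster 2 had the lowest share, at a median depth close to that of cluster 1, and whether its Il1rl1 counts came from free RNA was not tested.

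Cells without Il1rl1 counts were matched to the positive cells by total count, 1 to 1 within each library, and every positive cell found a partner. Median totals were 2225 and 2216 on day 0 and 2207 and 2202 on day 10, and median genes per cell were 1144 and 1146, and 1137.5 and 1150.0. The counts were then summed per library and side, and the 4 sums were tested with edgeR's quasi-likelihood test with library as a block. The p-values therefore measure how much the difference between positive and zero cells varied between 2 libraries, with an estimate of spread that draws on all genes. The 2 libraries are also 2 different days, so a difference that changes with the day counts as spread. Nothing says that the libraries came from separate animals. A zero cell can still hold unseen Il1rl1 RNA.

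Il1rl1-positive cells had more RNA of the type 2 cytokine gene Il5, the growth factor gene Csf2, the chemokine gene Cxcl2, the inhibitory receptor gene Klrg1 and the poly(A) polymerase gene Tent5a. They had less of 5830411N06Rik, a scavenger receptor gene also called Scart2. Of 4597 genes tested, these 5 were higher (0.109%) and this 1 was lower (0.0218%) at a Benjamini-Hochberg adjusted p under 0.05, and 293 genes had an unadjusted p under 0.05. DESeq2 called 0 genes on the same sums, with 24 at an unadjusted p under 0.05. The edgeR calls also went to 0 with no filter on low counts (252 at an unadjusted p under 0.05), with 2 or more Il1rl1 counts required (191) or without the cells of cluster 3 (205). Without the library block Csf2 and Cxcl2 were called, and Il5, Klrg1, Tent5a and 5830411N06Rik were lost. The signs of the 6 genes were the same in each of these settings. Among the cells of cluster 1 alone Cxcl2 was the 1 gene of the 6 that was called, beside Jun (1.46, edgeR, adjusted p = 0.00898), and the fold changes of Il5 (0.43) and Tent5a (0.53) were smaller. Il5 was itself high in cluster 1 (3407 CPM against 558 CPM outside), so its smaller fold change there is not independent of the choice of cells.

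Taken 1 library at a time, with no test, 84 of 2246 genes were 2-fold or more higher in positive cells on day 0 (3.74%) and 119 lower (5.3%). On day 10 these were 117 (3.35%) and 136 (3.89%) of 3495 genes, and in the skin library 198 (2.34%) and 469 (5.53%) of 8474. Csf2, Cxcl2, Klrg1 and Tent5a were past 2-fold in all 3 libraries, and Il5 in the day 0 and skin libraries.

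Csf2 (ENSMUSG00000018916, chr11:54247271-54249667, minus strand) encodes GM-CSF, which supports myeloid cells. Its level was 332 CPM in positive and 25.7 CPM in zero cells on day 0, 139.7 and 23.4 CPM on day 10, and 342 and 93.3 CPM in the skin library. The positive cells were higher in all 3 libraries. The log2 fold change over the dorsal libraries was 3.08 ± 0.45 (SE, edgeR, adjusted p = 0.00583), and it rested on 69 counts in 23 of 145 positive cells against 8 counts in 6 matched cells. Single-library ratios were 12.9 (95% counting interval 4.11 to 65.4), 5.97 (2.29 to 19.7) and 3.67 (3.01 to 4.51).

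Il5 (ENSMUSG00000036117, chr11:53720794-53725106, plus strand) encodes the cytokine that sustains eosinophils. It stood at 5164 CPM in positive and 2375 CPM in zero cells on day 0 and at 2491 and 1582 CPM on day 10. In the skin library the values were 3971 and 865 CPM. The positive cells were the higher side each time. The dorsal log2 fold change was 0.91 ± 0.13 (edgeR, adjusted p = 0.00583), and the ratio in the skin library, 4.59 (4.30 to 4.89), was above those of day 0, 2.17 (1.88 to 2.52), and day 10, 1.57 (1.37 to 1.81). Il5 was seen in most positive cells, 83.7% on day 0 and 76.0% on day 10, against 53.1% and 45.8% of matched zero cells.

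Cxcl2 (ENSMUSG00000058427, chr5:90903871-90905938, plus strand) encodes a neutrophil-attracting chemokine and is a textbook NF-κB target. It was at 213 and 34.3 CPM on day 0, 326 and 65.5 CPM on day 10 and 693 and 84.3 CPM in the skin library, positive cells first. No positive sum was as low as any zero sum. Its log2 fold change was 2.40 ± 0.35 (edgeR, adjusted p = 0.00583). The counts sat in few cells: 14.3% and 13.5% of positive cells had 1, against 4.08% and 6.25% of matched zero cells.

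Klrg1 (ENSMUSG00000030114, chr6:122270596-122282882, minus strand) marks mature ILC2s and effector lymphocytes. Positive and zero cells had 273 and 60.02 CPM on day 0, 158 and 37.4 CPM on day 10 and 109 and 5.97 CPM in the skin library. The dorsal log2 fold change was 2.13 ± 0.38 (edgeR, adjusted p = 0.0356). The call was lost with DESeq2's size factors in edgeR (adjusted p = 0.0844), and its adjusted p ran from 9.4e-19 to 0.99997 over all alternatives. Tent5a (ENSMUSG00000032265, chr9:85320439-85327348, minus strand) was close to 2-fold higher in each library, at ratios of 2.11, 2.15 and 2.01, with a dorsal log2 fold change of 1.11 ± 0.18 (edgeR, adjusted p = 0.0172). 5830411N06Rik (ENSMUSG00000054672, chr7:140247284-140300736, plus strand), named after its values were seen, had 3 counts in positive and 45 in zero cells on day 0, and 2 and 15 on day 10. Its log2 fold change was -3.48 ± 0.51 (edgeR, adjusted p = 0.00583). It lies beside its relative Cd163l1, and how reads shared by such relatives were counted is not given in the sources used here. It could not be compared in the skin library. Its zero-side counts lay in few cells, 8 of 49 matched cells on day 0 and 4 of 96 on day 10.

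**Figure D2:**
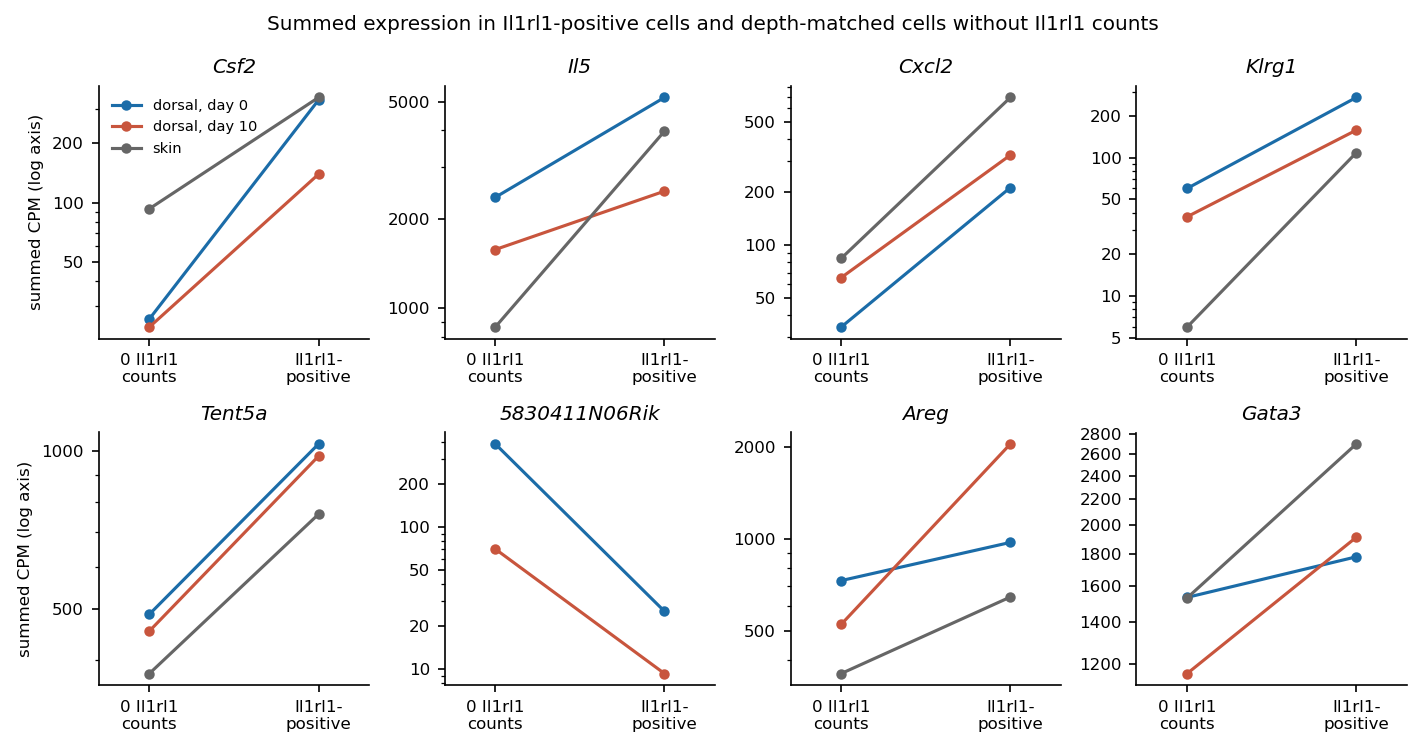
Summed CPM (log axis, a separate range per gene) in matched cells with 0 Il1rl1 counts and in Il1rl1-positive cells, 1 line per library. Every line of Csf2, Il5, Cxcl2, Klrg1, Tent5a, Areg and Gata3 goes up and both lines of 5830411N06Rik go down.

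Within the ILC2 list 3 of 22 genes tested were higher in the positive cells (Csf2, Il5 and Klrg1) and 0 lower, against 0.109% and 0.0218% of all genes tested, with a median log2 fold change of 0.32 against 0.00 over all genes tested. Areg, for the epidermal growth factor family ligand amphiregulin, just missed the threshold at 1.31 ± 0.25 (edgeR, adjusted p = 0.0544). Its ratio was 1.33 (0.998 to 1.79) on day 0, 3.89 (3.15 to 4.83) on day 10 and 1.78 (1.59 to 1.99) in the skin library. Arg1, the arginine-degrading enzyme of ILC2s, had 10 counts in positive and 0 in zero cells on day 0, at least 3.31-fold higher against a floor of 3 counts. On day 10 it had 23 and 6, and in the skin library 182 and 11, but the dorsal test gave an adjusted p of 0.341 in edgeR.

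The defining ILC2 factors Gata3 and Rora were not called in the dorsal libraries. Gata3 was at 1781 and 1535 CPM on day 0 and 1914 and 1161 CPM on day 10, a log2 fold change of 0.51 ± 0.15 (edgeR, adjusted p = 0.457). Its ratio was 1.16 (0.946 to 1.42) on day 0 and 1.65 (1.40 to 1.94) on day 10, where the interval lies above 1. Rora, for RORα, differed by 0.15 ± 0.11 (edgeR, adjusted p = 0.875). Most cells of both kinds had Gata3 counts, 46 of 49 and 85 of 96 positive cells and 35 and 72 matched zero cells on day 0 and day 10. Of the other type 2 cytokine genes, Il13 differed by 0.27 ± 0.18 and Il4 by 0.03 ± 0.65, with edgeR adjusted p-values of 0.850 and 0.999. The sign of Il4 turned when the skin library was added (-0.35). Receptor genes of ILC2s that gave no call were Icos (-0.10 ± 0.10), Il7r (-0.18 ± 0.17), Il2ra (0.36 ± 0.20), Il18r1 (0.22 ± 0.20) and the IL-25 receptor gene Il17rb (-0.54 ± 0.52). Ptgdr2, the prostaglandin D2 receptor gene, had 0 counts in the positive cells of both dorsal libraries. A p that misses the threshold does not show that the levels were alike.

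The type 17 genes had signs below 0 in the fit over both dorsal libraries, without a call. Of 10 tested genes of the ILC3 and type 17 list, 0 were called and 0 had a positive sign, with a median log2 fold change of -0.35. Il17a, for the cytokine IL-17A, had 4 counts in positive and 17 in zero cells on day 0 and 13 and 22 on day 10 (-1.20 ± 0.44, edgeR, adjusted p = 0.648). In the skin library it had 23 and 10, a ratio of 2.30 (1.05 to 5.40), and within cluster 1 its sign turned (1.62). Il17f, for the related IL-17F, had a ratio of 0.0710 (0.00820 to 0.282) on day 0 but 7.96 (1.07 to 353) on day 10, from 8 counts and 1 count, so the sign did not hold in each library. Tmem176b, an ion channel gene high in type 3 cells, differed by -0.36 ± 0.34, and Maf, a transcription factor gene, by -0.70 ± 0.26. Tbx21, for the type 1 factor T-bet, had 1 count in the positive cells of each dorsal library, too few to test. The plot of ILC2 and type 17 genes sets the lists side by side.

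**Figure D3:**
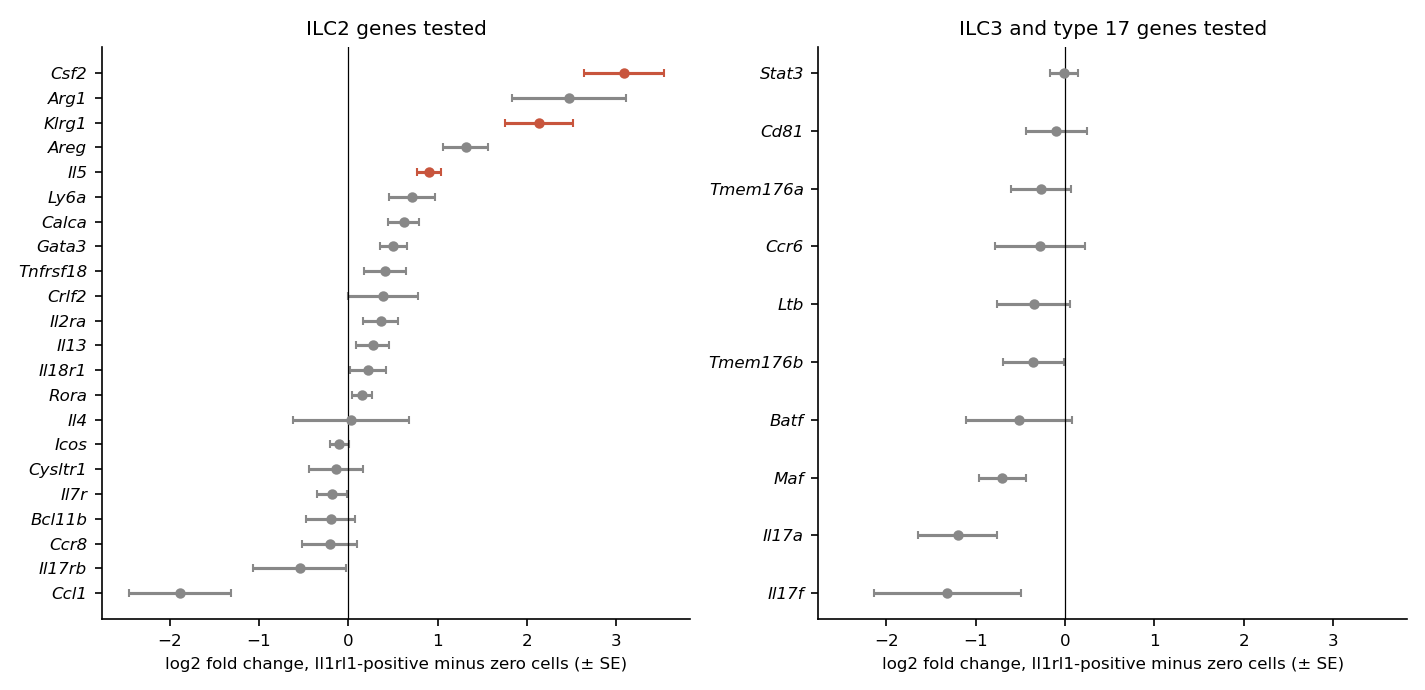
Log2 fold change between Il1rl1-positive and matched zero cells (± SE, 2 dorsal libraries) for each tested gene of the ILC2 list (left) and the ILC3 and type 17 list (right); red points passed the threshold. The ILC2 genes run from Ccl1 below 0 to Csf2 at 3.08, and all 10 type 17 points lie below 0.

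Of 28 tested members of the IL-33 signalling list, the receptor's own pathway, 0 were higher and 0 lower. With 0.131% of all genes called, a count of 0 in such a list is no result about the pathway. The list had a median log2 fold change of 0.22 and 19 positive signs. The largest shifts with low p-values were in the NF-κB inhibitor gene Nfkbia, at 1329 and 617 CPM on day 0 and 1336 and 1034 CPM on day 10 (0.69 ± 0.18, edgeR, adjusted p = 0.382), and in Jun, a subunit of the AP-1 factor (1.18 ± 0.32, edgeR, adjusted p = 0.411). Mapk8, for the kinase JNK1, had only 17 and 3 counts over the dorsal libraries (2.42 ± 0.79, edgeR, adjusted p = 0.520). The co-receptor gene Il1rap had 2 counts in all positive dorsal cells together. The transcript of the ligand, Il33, had 0.

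The named genes with the highest fold changes that held in both dorsal libraries were, beside those above, Tnfsf8 (CD30 ligand), Ccdc184, Jun, Ythdc1, Cct5, Ppp1r15a and Apaf1. Tnfsf8 (1.36 ± 0.26, edgeR, adjusted p = 0.0544) was 2.17-fold and 2.84-fold higher in the dorsal libraries but lower in the skin library, at 0.696 (0.585 to 0.826). The lowest were Jaml, Cd164, Cstb, Litaf, Sfpq, Klf4, Vps37b, Fam110a, Eprs and Rgs2. Jaml, an adhesion molecule gene, was at 187 and 369 CPM on day 0, 158 and 445 CPM on day 10 and 169.7 and 515 CPM in the skin library (-1.26 ± 0.27, edgeR, adjusted p = 0.117). Cd164, for a sialomucin, fell short as well (-1.07 ± 0.22, edgeR, adjusted p = 0.0747). Klf4, Vps37b and Rgs2 were lower in the dorsal positive cells but had ratios of 1.18, 1.56 and 1.19 in the skin library.

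Among other lists, the type 2 and other cytokines list had 3 of 16 tested genes higher (Csf2, Cxcl2 and Il5) and the costimulatory and inhibitory receptor list 1 of 13 (Klrg1), against 0.109% of all genes tested. Csf2, Il5 and Klrg1 are the same calls as in the ILC2 list, so only Cxcl2 adds to it. All other lists had 0 calls, which at that share says nothing about their members. Their genes with the lowest p included Il18rap (0.53 ± 0.20) and Tnfrsf9 (0.57 ± 0.20) among receptors and Socs2 (1.04 ± 0.40) among SOCS genes. They also included Lmo4 (0.49 ± 0.19) and Cd7 (-1.29 ± 0.37) among early lymphoid genes and Ldha (0.51 ± 0.14) in glycolysis.

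Markers of other cell types were checked in the positive cells. Of the 13 mast cell and basophil markers in the tables, 11 were at 0 in the dorsal positive cells, Cpa3, Mcpt4, Tpsb2, Fcer1a and Ms4a2 among them. The list's summed level was 401 and 433 CPM in positive cells, 223 and 402 CPM in zero cells, and most of it was Kit, a receptor tyrosine kinase gene that ILCs share (0.34 ± 0.25). The regulatory T cell list summed to 733 and 871 CPM against 489 and 548 CPM, with Foxp3 at 0. T cell markers summed to 1244 and 1588 CPM against 1792 and 1586 CPM, with Cd3e, Cd4 and Cd8a at 0 in positive cells. Counts of some CD3 gene occurred in 16.3% and 16.7% of positive cells and in 9.51% and 17.04% of all zero cells, unmatched. Without any cell that held CD3 counts, all 6 genes remained among 23 calls. Myeloid markers summed to 324 and 293 CPM in positive cells and 352 and 309 CPM in zero cells, MHC class II genes to 1841 and 2165 CPM and 1895 and 1909 CPM, and keratinocyte markers to at most 112 CPM on either side. Of the ILC2 markers behind the name ILC2-like, Rora was seen in 95.9% and 95.8% of positive cells and in 89.8% and 94.8% of matched zero cells, so Rora and Gata3 mark both sides.

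Within the positive cells the level of several genes followed the number of Il1rl1 counts, most clearly in the large skin library. There Il5 went from 865 CPM in matched zero cells to 1780.2, 3367 and 6787 CPM in cells with 1, 2 to 5 and 6 or more Il1rl1 counts. Klrg1 went from 5.97 to 44.5, 77.6 and 206 CPM, and Jaml from 515 to 342, 128 and 48.0 CPM. The classes were not matched for depth, and the median totals in the same order were 2679, 2275.5, 2673 and 3244. Cells with 6 or more Il1rl1 counts were also the deepest class in both dorsal libraries. In the dorsal libraries, with 10 to 40 cells per class, Arg1 followed the same order (0, 0, 113 and 161 CPM on day 0 and 28.1, 33.5, 67.1 and 230 CPM on day 10). Il5 did not, since cells with 1 Il1rl1 count already had 5349.9 CPM on day 0 and 2929.5 CPM on day 10. Il13 was highest in the cells with 6 or more, at 1850.1 and 1319 CPM.

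**Figure D4:**
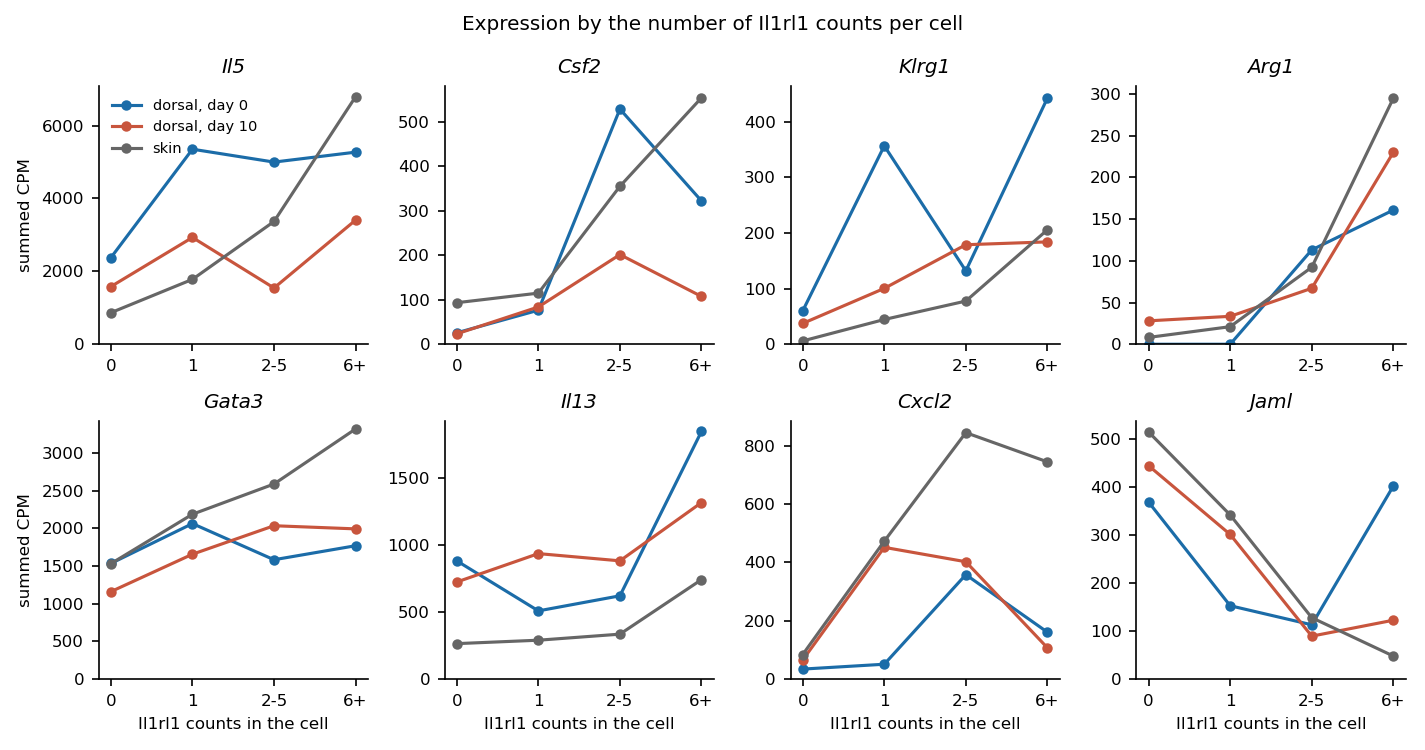
Summed CPM of 8 genes in cells grouped by their number of Il1rl1 counts (0 is the matched zero cells), 1 line per library, with linear axes from 0. In the skin library Il5, Klrg1, Arg1 and Gata3 are higher in each next class and Jaml is lower, while the dorsal lines are less even.

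The skin library widened the list of differences. With its matched sums added to the fit, edgeR called 75 genes higher (0.835% of 8978) and 32 lower (0.356%), among them Csf2, Il5, Cxcl2, Klrg1 and Tent5a. Of 26 tested ILC2 genes 13 were now higher, among them Arg1 (3.61 ± 0.38), Areg (1.16 ± 0.14), Gata3 (0.68 ± 0.12), Il13 (0.53 ± 0.14), Il2ra (0.58 ± 0.13) and the lipid-sensing receptor gene Pparg (3.38 ± 0.65). Ccl1, a chemokine gene, was also higher here (1.13 ± 0.28) but stood at -1.88 ± 0.57 in the dorsal libraries alone. Of 33 IL-33 signalling genes 4 were higher, namely Jun, Nfkb1, Nfkbia and Nfkbiz. Of 18 ILC3 and type 17 genes 1 was lower (Ccr6). The genes lower here also held Krt5 and Krt14 of keratinocytes and Lyz2 of myeloid cells. Keratinocyte markers summed to 150.4 CPM in positive and 327 CPM in zero cells of the skin library, and their part in the difference was not tested.

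Between the days, positive cells on day 10 had less Il5 and Csf2 and more Areg than positive cells on day 0. Of 2894 genes with at least 20 counts, 163 were 2-fold or more higher on day 10 (5.63%) and 118 lower (4.08%), without a test. For the days, zero cells means all 515 and 358 of them on day 0 and day 10, not matched for depth. Their shares were 3.12% and 3.96% of 7426 genes. Their sums held 1087276 and 677662 counts, against 117342 and 214787 in positive cells, so the shares were not measured alike. Among the 580 genes with at least 100 counts in positive cells, 7 were higher and 5 lower. Il5 went from 5164 to 2491 CPM, a ratio of 0.482 (0.429 to 0.543), against 0.813 (0.749 to 0.883) in zero cells. Csf2 had a ratio of 0.420 (0.252 to 0.694) and Klrg1 of 0.580 (0.348 to 0.972). Areg went from 972 to 2039 CPM, a ratio of 2.099 (1.70 to 2.60), against 1.52 (1.33 to 1.73) in zero cells. In the depth-matched zero cells alone, Areg instead went down, from 729 to 524 CPM, and Il5 went from 2375 to 1582 CPM. The decoy receptor gene Il1r2 went from 247 to 540.1 CPM in positive cells (2.19, 1.44 to 3.41) but from 273 to 152 CPM in zero cells (0.556, 0.440 to 0.698). Other genes past 2-fold upward were Ctla2a at 2.52 (zero cells 2.05), Gem at 2.37 (1.38), Maf at 2.26 (1.17) and Ell2 at 2.08 (0.945). Downward they were the protease inhibitor gene Serpinb1a at 0.216 (zero cells 0.637), Nabp1 at 0.443 (0.795) and Nudt4 at 0.468 (0.489). The ratios of Ctla2a and Nudt4 were about as large in zero cells. Gata3 had a ratio of 1.07 (0.907 to 1.28).

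Few positive cells had reporter transcript. Counts of tdtomato occurred in 2 of 49 positive and 10 of 49 matched zero cells on day 0 and in 3 of 96 and 7 of 96 on day 10 (log2 fold change -2.40 ± 0.63, edgeR, adjusted p = 0.359). Without the cells that held tdtomato counts, the same 6 genes were among 7 calls. Areg counts occurred in 51.0% and 63.5% of positive cells and in 40.8% and 34.4% of matched zero cells.

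In bulk, Il1rl1 and Csf2 were higher in reporter-negative than in reporter-positive libraries of both intact and Gata3flox mice, and Il5 and Cxcl2 passed the threshold in Gata3flox mice alone. Il1rl1 was at 2.11 and 10.3 CPM in fm_pos and at 108 and 85.9 CPM in fm_neg (log2 fold change 3.96 ± 0.68, edgeR, adjusted p = 0.0188). In the Gata3flox mice it was at 3.60, 4.89 and 3.70 CPM in reporter-positive and 45.3, 102 and 81.5 CPM in reporter-negative libraries (4.23 ± 0.57, edgeR, adjusted p = 0.0179). The intact call held with any 1 of the 4 libraries left out, with adjusted p from 0.00277 to 0.0359, and was lost when the 4 libraries were fitted alone (edgeR, adjusted p = 0.246). The Gata3flox call held in 1 of 6 such fits, with adjusted p from 0.0335 to 0.106 and log2 fold changes from 3.96 to 4.49. Bulk libraries cannot tell fewer cells of a type from less RNA per cell.

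Csf2 was at 18.2 and 41.8 CPM in fm_pos and 407 and 150.0 CPM in fm_neg (3.21 ± 0.51, edgeR, adjusted p = 0.0142). In the Gata3flox mice the difference was 4.16 ± 0.44 (edgeR, adjusted p = 0.00679). Il5 differed by 2.11 ± 0.85 in intact mice (edgeR, adjusted p = 0.215) and by 5.05 ± 0.79 in Gata3flox mice (edgeR, adjusted p = 0.0346), where the reporter-positive libraries had 6.78, 44.6 and 30.01 CPM and the reporter-negative ones 499, 838 and 1358 CPM. Cxcl2 passed in the Gata3flox mice too (1.48 ± 0.25, edgeR, adjusted p = 0.0431) and not in the intact mice (1.28 ± 0.30, edgeR, adjusted p = 0.0564). Klrg1 and Tent5a had log2 fold changes above 0, toward the reporter-negative libraries, in both kinds of mice, with no call in either comparison. 5830411N06Rik was the mirror image, at 656 and 524 CPM in fm_pos and 7.92 and 83.8 CPM in fm_neg (-3.69 ± 0.89, edgeR, adjusted p = 0.0629), and it was called in the Gata3flox mice (-5.29 ± 0.79, edgeR, adjusted p = 0.0283). Leaving out any 1 of the 6 Gata3flox libraries ended the calls of Il5, Cxcl2 and 5830411N06Rik there, with adjusted p from 0.0721 to 0.210, while Csf2 was called in 4 of the 6 fits. The differences between intact and Gata3flox mice were not tested.

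Of the 75 genes higher in positive cells over the 3 single-cell libraries, 11 were higher in fm_neg than in fm_pos, against 2.11% of all 17456 genes, and 0 were lower, against 0.624%. In the Gata3flox mice 12 were higher and 0 lower, against 0.235% and 0.126%. Most counts behind the 75 genes came from the skin library, with 1343271 in its positive cells against 117342 and 214787 in the dorsal ones. The set is therefore not one of the dorsal cells alone. Ccl1 was called higher in both kinds of mice but stood at -1.88 in the dorsal libraries alone. All Gata3flox calls are sensitive to single libraries, since leaving out 1 took the 63 calls over all genes to between 2 and 27. The median log2 fold changes of the 75 genes were 1.10 and 0.80, and 0.00 over all genes in both. The 32 lower genes gave 8 calls higher and 5 lower in intact mice. Of the 10 named highest genes, 0 were called in intact mice and 3 in Gata3flox mice (Ccdc184, Cxcl2 and Il5).

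After tamoxifen-induced deletion of Gata3, Il1rl1 was at 31.6 and 26.7 CPM against 77.98 and 76.02 CPM in wild type (-1.40 ± 0.27, edgeR, adjusted p = 0.585). edgeR called 0 of 13272 genes in either direction (0.0%), with 915 at an unadjusted p under 0.05, while DESeq2 called 196, Il1rl1 among them (adjusted p = 0.0314). The targeted gene, Gata3, was at 298 and 314 CPM against 379.8 and 579.6 CPM (-0.65 ± 0.26), and the part of the gene that was deleted is not given in the sources used here. The log2 fold changes of Klrg1 (-1.89 ± 0.43), Tent5a (-1.40 ± 0.25) and Csf2 (-0.22 ± 0.27) were below 0 and that of 5830411N06Rik (0.81 ± 0.24) above 0. None of these was called by edgeR. Of the 75 genes, 21 had a positive sign, with a median of -0.39 against -0.02 over all genes.

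**Figure D5:**
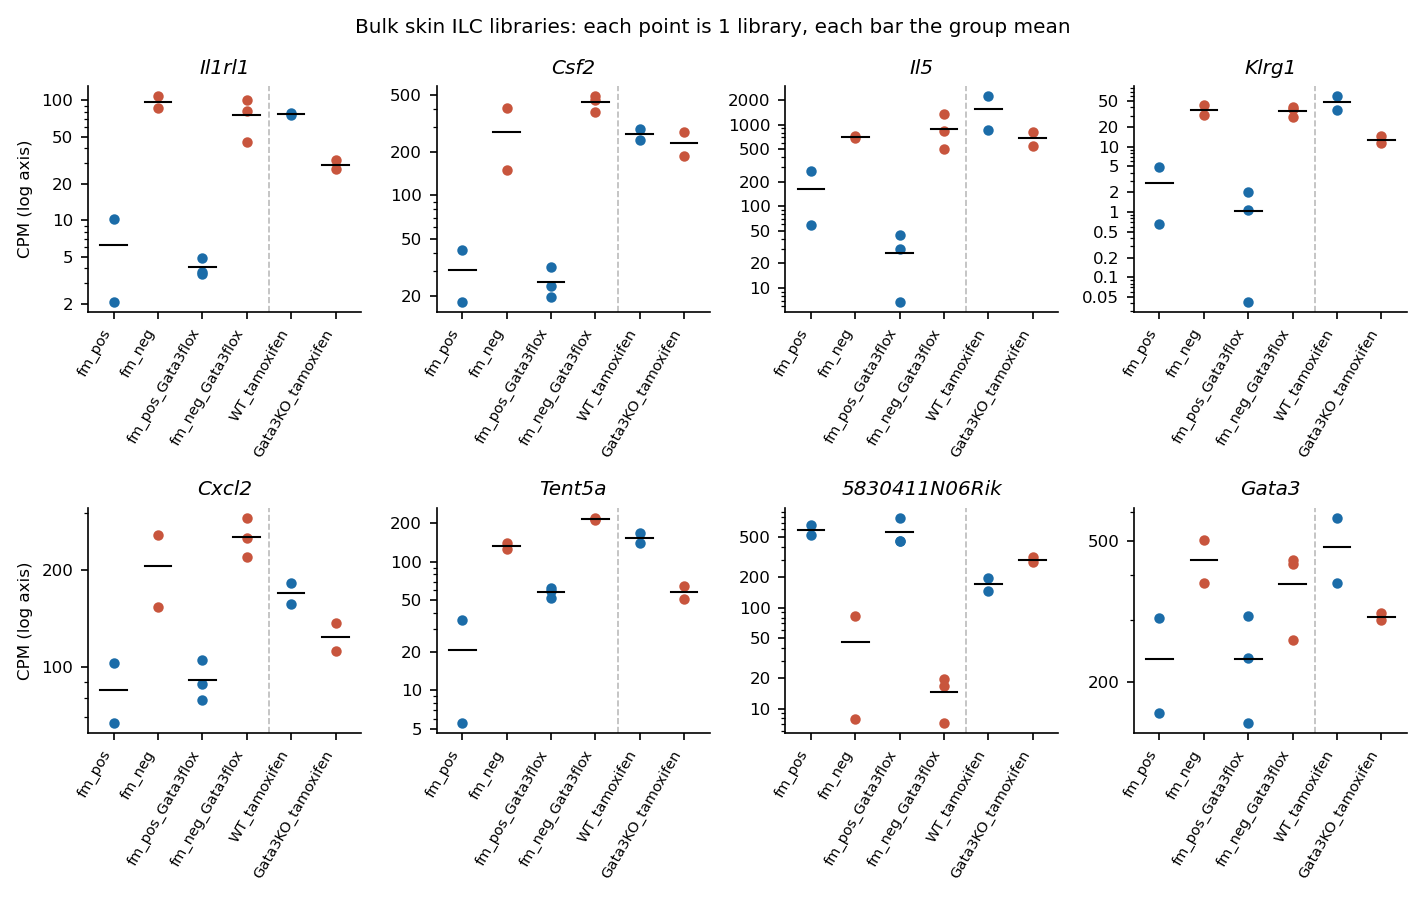
CPM (log axis, a separate range per gene) of Il1rl1, 6 genes that differed in the Il1rl1 split and Gata3 in each of the 14 bulk libraries; points are libraries, black bars are group means, and the dashed line separates the fate-map from the tamoxifen libraries. Il1rl1, Csf2, Il5, Klrg1, Cxcl2 and Tent5a are higher in reporter-negative groups (red, left of the line) and 5830411N06Rik is higher in reporter-positive groups (blue).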

How the data were processed

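The members and the gene lists were chosen with earlier results of these data known. The deposited values are raw counts per gene, in bulk per library and in single-cell tables per cell; the authors aligned reads to mm10 with HISAT2 2.1.0 and counted with featureCounts (Subread), per the submitters' processing notes. Platform, cell calling, doublet removal and strand setting are not given in the sources used here. The dorsal libraries held 1204618 and 892449 counts and the skin library had 10612283 (medians of 2001, 1826.5 and 2257.5 per cell); bulk totals ran from 14450612 to 44098274. No cell names were shared by the dorsal libraries, and 4 were shared by the day 0 and skin libraries. Scrublet (scanpy 1.11.5) marked 11, 11 and 3 cells as doublets, 4 of them dorsal members; they were kept, and left out as an alternative.

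Each member was matched to the zero cell of its library with the nearest log10 total, within 0.1. Counts were summed and genes with at least 20 counts tested with edgeR 4.0.16 (R 4.3.3; TMM, quasi-likelihood, Benjamini-Hochberg over all genes), leaving out Il1rl1. The 10 fate-map libraries shared 1 fit and the 4 tamoxifen libraries another. Alternatives used DESeq2 1.42.0, other filters, other matching, thinning and libraries left out. On simulated dorsal sums edgeR called 64% of genes changed 2-fold, 100% at 4-fold or more and 0.217% of unchanged genes. All changed genes there had at least 100 counts, as 1212 of the 4597 tested genes do, and all genes were given the same spread. The simulation does not say how often changes in genes with fewer counts are called. It changed 50 genes at each of 2-, 4-, 8- and 16-fold, while the real split gave 6 calls. The Benjamini-Hochberg threshold loosens as more genes change, so the 64% and 100% are not the sensitivity of the real split. The 0.217% of unchanged genes called in the simulation was above the 0.131% of genes called in the real split. Ratios have exact conditional 95% intervals. Named genes were the readout genes of ILCs, up to 3 of each list by lowest p, and the 10 highest and 10 lowest fold changes among genes with at least 100 counts and an interval off 1 in both dorsal libraries; for the days, up to 8 genes each way past 2-fold. Clusters are Leiden clusters at resolution 0.5.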

Additional observations from a re-analysis of the deposited data

Results flagged for a closer look

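Il17f moved in opposite directions in the dorsal libraries: the ratio of positive to matched zero cells was 0.0710 on day 0 (2 and 28 counts) and 7.96 on day 10 (8 and 1 counts). The difference was not tested.

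In bulk, every reporter-negative library lay on one side of the reporter-positive libraries in intact mice and on the other side in Gata3flox mice for 6 of the named genes. The log2 fold changes, intact then Gata3flox, were -0.88 and 2.08 for Il17rb, -0.60 and 0.24 for Il18r1, -0.61 and 0.45 for Il7r, 0.51 and -0.70 for Klf4, 1.05 and -0.57 for Litaf, and 1.41 and -1.01 for Sfn. These differences were not tested, and the share of all genes that switched sides in this way was not counted. The 6 genes are therefore given as a description only.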

How the results depend on the processing

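The 6 calls of the dorsal split went to 0 with 2 or more Il1rl1 counts required, without cluster 3, under DESeq2 and when genes of low counts were not filtered, to 5 with DESeq2's size factors in edgeR (Klrg1 lost), to 2 with no replicate block (Csf2 and Cxcl2) and to 2 in cluster 1 alone. They went to 18 with sums of at least 100, 107 with the skin library added, 65 with no matching, 20 with matching within 0.02, 13 after thinning, 12 after the cell filter and 23 without cells with CD3 counts; the cause was not tested. The settings on cluster 1, cluster 3 and tdtomato were chosen after seeing the data. Leaving out a dorsal library leaves no residual degrees of freedom, so only ratios of the other library are given. Fold changes that changed sign were Il13 (-0.069), Il4 (-0.13), Il2ra (-0.056), Il17a (1.62), Tmem176b (0.14) and Kit (-0.026) in cluster 1 alone, Il4 with the skin library (-0.35), Il18r1 after thinning (-0.034), Il17f with no matching (0.49) and Csf2 without Gata3KO_tamoxifen replicate 1 (0.037, against -0.52 to 0.037 over the 4 libraries left out in turn); none of these values belonged to a call.

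Shares of positive cells were 5.50%, 14.8% and 6.89% with 2 or more counts and 6.42%, 17.02% and 7.86% after thinning. Genes past 2-fold in single libraries numbered 1395, 615 and 1482 with no matching and 7, 10 and 107 with at least 100 counts (day 0, day 10, skin), and between days 12 with at least 100 counts and 156 after thinning. Bulk calls, intact, were 2208 under DESeq2, 1324 with no filter, 29 with both groups alone and 514 to 877 with a library left out, highest without fm_pos replicate 2. For Gata3flox mice these were 424, 321, 233 and 2 to 27, and for tamoxifen 196, 6 and, with a library left out, 0. With the replicate number as a block the calls were 0, 205 and 0. Whether same-numbered reporter-positive and reporter-negative libraries came from the same mice is not given in the labels. Deviations from the group means had correlations of -0.0044 (intact), 0.128, 0.0146 and 0.0585 (Gata3flox) and 0.0107 (tamoxifen) between same-numbered libraries. With 2 libraries in a group the deviations mirror each other, so the intact and tamoxifen values cannot decide on pairing. A group left with 1 library is assumed to vary like the others. In the simulated dorsal sums, where 50 genes were changed at each fold size, 64% of 2-fold changes were called. All were set in genes with at least 100 counts, and how this varied with depth was not tested.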
